A study of Mus musculus with 24 samples.

Results

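The genes described here are 9 genes that mark resting, naive T cells or hold them in quiescence, namely Klf2, S1pr1, Tcf7, Lef1, Foxo1, Foxp1, Btg1, Btg2 and Tob1. They were chosen by name, as the rows of the gene count table whose Ensembl identifiers carry these symbols, and they are 9 of the 54446 gene identifiers in that table. All 9 passed the filter on low counts and were among the 15325 genes tested.

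A naive T cell stays small and undivided, recirculates between blood and lymphoid tissue, and needs transcription factors and messenger RNA regulators to remain in that state. Klf2 encodes a zinc finger transcription factor that activates S1pr1, the receptor for sphingosine 1-phosphate through which T cells leave lymphoid organs, and Foxo1 encodes a forkhead factor that acts above Klf2 and is excluded from the nucleus when the kinase AKT is active. Tcf7 and Lef1 encode related HMG-box factors of naive and memory T cells, Foxp1 encodes a forkhead repressor needed for quiescence, and Btg1, Btg2 and Tob1 encode antiproliferative proteins that recruit the CCR4-NOT complex, which shortens the poly(A) tails of messenger RNAs.

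CD4+ T cells were taken by immunomagnetic negative selection from the spleens of wild type (WT) mice and of mice that lack AIM2 (Aim2-/-), a cytosolic DNA sensor, both on the C57BL6 background. The labels name no sort for naive cells, and the ages of the mice were not given in the sources used here. The cells were taken unstimulated (0 h) or after 3, 6 or 24 h of culture in RP10 medium with anti-CD3 and anti-CD28 antibodies, which trigger the T cell receptor together with its costimulator. No group was cultured without the antibodies, so the antibodies and the time in culture cannot be told apart. Stimulation below means both together. Each of the 8 groups held 3 mice, and the same 3 mice of a genotype gave the cells for all 4 times (mice 1, 3 and 4 in WT and mice 1, 2 and 4 in Aim2-/-), so that 24 mRNA libraries were sequenced.

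Gene counts summed to between 19.7 and 21.6 per library, in units of 1000000 reads, and levels are given as counts per 1000000 (CPM) after TMM scaling, which corrects for the few genes that take a large share of a library. Aim2 itself stood at 21.5, 75.0 and 67.5 CPM in unstimulated WT mice 1, 3 and 4 against 15.7, 20.1 and 19.0 CPM in Aim2-/- mice 1, 2 and 4, and the mouse labelled WT 1 was likewise near the Aim2-/- mice at the other times (5.57 CPM at 24 h, beside 34.0 and 38.6 CPM in the other two WT mice). Called differences between genotypes are therefore also given without the mouse labelled WT 1. Summed CD4+ T cell markers (Cd3d, Cd3e, Cd3g, Cd4, Cd5 and Cd28) lay between 2263 and 3553 CPM in all libraries. At 0 h markers of B cells summed to 8.36 to 10.2 CPM in WT and 16.2 to 42.3 CPM in Aim2-/-, myeloid markers to 54.0 to 71.5 and 186 to 538 CPM, erythroid markers to 7.70 to 71.8 and 21.1 to 336 CPM, and NK cell markers to 32.0 to 52.9 and 91.5 to 112 CPM, with at most 1 gene of a list at 0 in any of these libraries. Eomes made up most of the NK cell sum, at a mean of 45.4 CPM over all libraries, beside 5.41 CPM for Klrb1c. The 4 regulatory T cell markers summed to 647 to 956 CPM in WT and 911 to 1124 CPM in Aim2-/- at 0 h.

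All 9 genes were lower at 24 h of stimulation than at 0 h in both genotypes. The share of that change reached by 3 or 6 h differed between genes. In WT Tcf7 and Lef1 were by 3 h near their 24 h level. In both genotypes Klf2, S1pr1, Foxo1 and Tob1 were lower by 3 h and lower again after 6 h. Most of the log2 change of Btg1 and Btg2 came between 6 and 24 h, the longest interval sampled. Btg2 was already lower by 6 h. Foxp1 changed little at 24 h. In WT 8 of 9 genes were lower at 3 h (16.4% of all genes tested were called lower), 8 of 9 at 6 h (24.8% of all genes) and 9 of 9 at 24 h (34.8% of all genes), with calls made at an adjusted p under 0.05. In Aim2-/- the counts were 7 of 9 at 3 h (14.6% of all genes), 7 of 9 at 6 h (22.7%) and 9 of 9 at 24 h (33.5%). Without the mouse labelled WT 1 the WT counts were 7, 7 and 9. The median log2 fold change of the 9 genes was -1.15, -1.50 and -2.10 at 3, 6 and 24 h in WT and -0.83, -0.95 and -1.90 in Aim2-/-, while the median over all genes tested stayed between -0.01 and 0.08. In such bulk RNA, fewer cells that express a gene and less of its RNA per cell cannot be told apart. CPM is a share of a library's counts, and total RNA per cell is not given in the sources used here. A lower CPM is thus a lower share and need not be less RNA per cell.

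**Figure D1:**
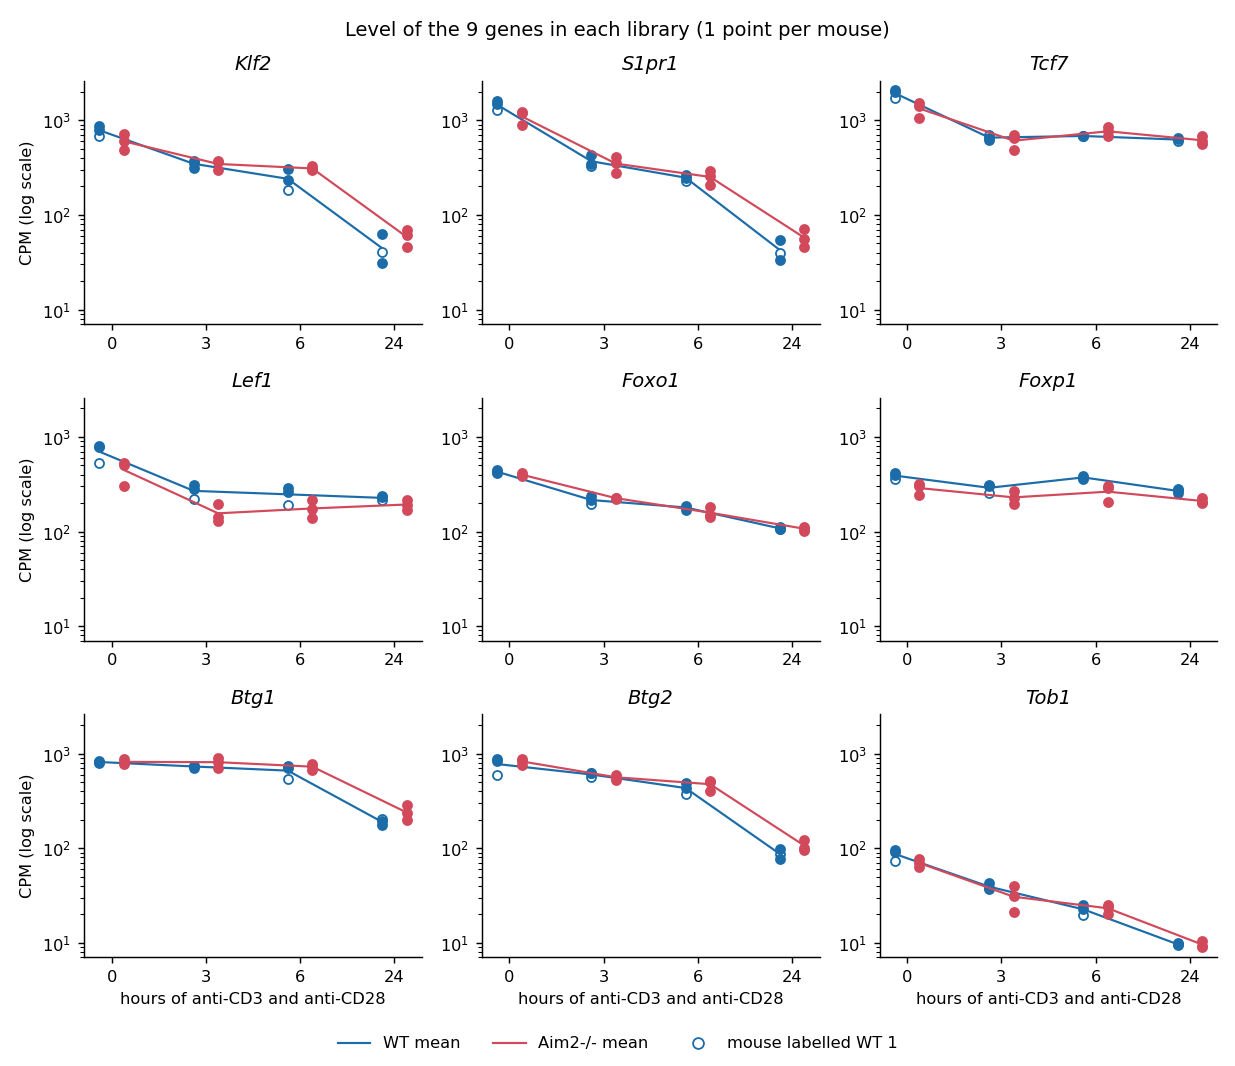
Level of each of the 9 genes in every library, in CPM on a log axis that is the same in all panels, against hours of stimulation (times evenly spaced, not to scale). Each point is 1 mouse, lines join the group means, blue is WT and red is Aim2-/-, and open circles are the mouse labelled WT 1. Tcf7 in WT goes from a mean of 1933 CPM at 0 h to 656 CPM at 3 h and 626 CPM at 24 h, whereas Btg1 is still at 661 CPM at 6 h and drops to 189.8 CPM at 24 h.

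Klf2 (ENSMUSG00000055148, GRCm38 chr8:72319033-72321656, plus strand) was at 686, 789.8 and 878 CPM in unstimulated WT mice 1, 3 and 4. After culture with the antibodies it was at 352, 314 and 376 CPM at 3 h, at 183, 234 and 305 CPM at 6 h and at 40.5, 30.8 and 62.4 CPM at 24 h. Thus every WT library lay below every library of the preceding time. The WT step from 3 to 6 h was not called in edgeR without a term for each mouse. It was called with that term (-0.56, adjusted p = 0.0063), in DESeq2 (adjusted p = 0.028) and in limma-voom (adjusted p = 0.045). The log2 fold change against 0 h was -1.18 ± 0.21 (SE) at 3 h (adjusted p = 0.00019), -1.71 ± 0.21 at 6 h (adjusted p = 9.6e-07) and -4.14 ± 0.24 at 24 h (adjusted p = 2.8e-12), a 17.6-fold reduction. In Aim2-/- mice 1, 2 and 4 Klf2 started at 485, 604 and 709 CPM, was at 299.7, 370.1 and 367 CPM at 3 h, at 296, 305 and 329 CPM at 6 h and at 69.2, 46.2 and 60.7 CPM at 24 h. These libraries overlapped between 3 and 6 h, with a log2 fold change of -0.16 ± 0.21 (adjusted p = 0.64), and the reduction at 24 h was 10.2-fold (adjusted p = 5.0e-11).

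The region from 250 bases before to 50 bases after the listed start of Klf2 is shown because the Klf2 protein belongs to the family that binds the sequence CACCC. It is RefSeq sequence (GRCm38.p6, chr8:72318812-72319111, plus strand), with the matches to CACCC, sought on both strands, in capitals.
Klf2: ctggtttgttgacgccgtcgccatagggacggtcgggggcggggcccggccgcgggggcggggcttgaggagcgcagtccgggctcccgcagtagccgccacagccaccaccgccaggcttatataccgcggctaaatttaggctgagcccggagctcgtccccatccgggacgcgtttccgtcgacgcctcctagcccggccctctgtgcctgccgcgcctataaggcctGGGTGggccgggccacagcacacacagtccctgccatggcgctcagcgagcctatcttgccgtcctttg
The window held 1 match, as the reverse complement GGGTG, and 57.5% of the 32851 promoter windows of this length held at least 1. Taking for each gene the listed start nearest to its annotated one, the windows of Tcf7, Lef1, Foxp1 and Tob1 held 2, 3, 3 and 3 matches, and none was found in those of Foxo1, Btg1 and Btg2.

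Among the 13 other KLF genes tested (of 16 in the table), 9 fell and 1 rose at 24 h in WT, and likewise 9 fell and 1 rose in Aim2-/-. Their median log2 fold change was -2.16 in WT and -1.36 in Aim2-/-. Klf13, Klf6 and Klf3 had log2 fold changes of -2.34 ± 0.20, -2.90 ± 0.15 and -2.99 ± 0.19 in WT at 24 h. The gene that rose was Klf16, by 0.33 ± 0.14 in WT (adjusted p = 0.035) and 0.35 ± 0.14 in Aim2-/- (adjusted p = 0.026).

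S1pr1 (ENSMUSG00000045092, GRCm38 chr3:115710433-115715072, minus strand) had the largest change of the 9 genes. Unstimulated WT mice held 1296, 1469 and 1613 CPM of this egress receptor, which became 331, 346 and 430.3 CPM at 3 h, 229.9, 246 and 266 CPM at 6 h and 40.002, 33.7 and 53.9 CPM at 24 h. In WT the 4 times did not overlap. In Aim2-/- the values were 884, 1235 and 1180.2 CPM at 0 h, 356, 412 and 278 CPM at 3 h, 255, 292 and 209 CPM at 6 h and 70.6, 55.2 and 46.3 CPM at 24 h. The drop at 3 h was 3.96-fold in WT and 3.16-fold in Aim2-/- (log2 fold changes -1.98 ± 0.19 and -1.66 ± 0.19, adjusted p = 1.3e-07 and 1.6e-06). By 24 h the reduction was 34.3-fold in WT and 19.2-fold in Aim2-/- (log2 fold changes -5.10 ± 0.22 and -4.26 ± 0.21, adjusted p = 6.8e-14 and 6.1e-13). S1pr1 had 2.92% of its unstimulated level left in WT and 5.22% in Aim2-/-.

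Of 11 other genes for sphingosine 1-phosphate receptors, their Gi subunit and the enzymes and transporter of this lipid, 7 fell and 0 rose at 24 h in WT, and 8 fell and 2 rose in Aim2-/-. S1pr4, another receptor of this lipid, fell by 2.42 ± 0.13 on the log2 scale in WT and by 2.04 ± 0.13 in Aim2-/-, and Sgpl1, the lyase that degrades sphingosine 1-phosphate, fell by 1.75 ± 0.10 in both. Gnai2, which couples the receptor, fell by 0.55 ± 0.09 in WT. The 2 genes that rose in Aim2-/- were the kinase gene Sphk1 (1.92 ± 0.61, adjusted p = 0.0082) and the transporter gene Spns2 (1.47 ± 0.45, adjusted p = 0.0062), at means of 3.07 and 6.01 CPM over all libraries. In WT their values were 0.83 ± 0.69 and 0.88 ± 0.47 and did not pass the test.

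Tcf7 (ENSMUSG00000000782, GRCm38 chr11:52252371-52283014, minus strand) was at 1726, 2077 and 1996 CPM in the unstimulated WT mice. It was at 707, 649 and 612 CPM at 3 h, and then at 682, 679.7 and 686 CPM at 6 h and 598, 645 and 634 CPM at 24 h. From 3 h on the WT level thus stayed between 32.4% and 35.3% of its starting value. Against 0 h its log2 fold change was -1.56 ± 0.14 at 3 h, -1.50 ± 0.14 at 6 h and -1.63 ± 0.14 at 24 h (adjusted p = 4.2e-08, 1.5e-08 and 1.1e-09). From 3 to 6 h it was 0.06 (95% confidence interval -0.21 to 0.32) and from 6 to 24 h -0.13 (-0.39 to 0.14). In Aim2-/- Tcf7 was at 1055, 1525 and 1414 CPM at 0 h, 648, 694 and 485 CPM at 3 h, 766, 851 and 678 CPM at 6 h and 557, 689 and 598 CPM at 24 h. Its log2 fold change there was -1.13 ± 0.14 at 3 h, -0.80 ± 0.14 at 6 h and -1.11 ± 0.14 at 24 h. In each Aim2-/- mouse the level was higher at 6 h than at 3 h, which passed the test only when each mouse was given its own term (0.33, adjusted p = 0.021, against 0.086 without it).

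Lef1 (ENSMUSG00000027985, GRCm38 chr3:131110471-131224356, plus strand) was also lower from 3 h on, and in each Aim2-/- mouse it was lower at 3 h than at 24 h. The WT mice had 525, 796 and 777 CPM at 0 h, 219.9, 279 and 309 CPM at 3 h, 191, 261 and 289.7 CPM at 6 h and 214, 238 and 229.5 CPM at 24 h. Lef1 in Aim2-/- stood at 306, 528 and 509 CPM at 0 h, 128, 196 and 143 CPM at 3 h, 138, 214 and 174 CPM at 6 h and 169, 218 and 192 CPM at 24 h. No stimulated library reached any unstimulated library of its genotype. At 3 h the log2 fold change was -1.38 ± 0.22 in WT and -1.52 ± 0.22 in Aim2-/- (adjusted p = 5.5e-05 and 2.7e-05), and at 24 h it was -1.62 ± 0.22 and -1.21 ± 0.22 (adjusted p = 1.3e-06 and 5.3e-05). The exons of Lef1 share 1208 bases with the antisense gene Gm43352, those of Foxo1 674 bases with the antisense gene Gm20402, and the strand setting of the counting was not given in the sources used here. Those of Foxp1 share 435 bases with 2 genes on its own strand, Gm20696 (300 bases) and Gm49348 (135 bases).

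A list of 12 genes held partners of TCF and LEF factors, the TCF genes Tcf7l1 and Tcf7l2, and Axin2. Of these, 9 fell and 1 rose at 24 h in WT (median log2 fold change -1.13), and 8 fell and 1 rose in Aim2-/- (-0.70). The corepressor gene Tle3 fell by 0.80 ± 0.11 on the log2 scale in WT, Pygo2 by 0.55 ± 0.09, and Ctnnb1, which encodes beta-catenin, by 0.18 ± 0.06. Bcl9, a coactivator of beta-catenin, rose by 0.41 ± 0.11 in WT (adjusted p = 0.0032) and 0.50 ± 0.11 in Aim2-/- (adjusted p = 0.00060).

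The forkhead gene Foxo1 (ENSMUSG00000044167, GRCm38 chr3:52268336-52353221, plus strand) went down at every step. In WT it was at 422, 414 and 452 CPM at 0 h, 196, 214 and 236 CPM at 3 h, 183, 169 and 186 CPM at 6 h and 111, 107 and 106 CPM at 24 h. In Aim2-/- it was at 387, 420.4 and 392 CPM at 0 h, 229, 222 and 226 CPM at 3 h, 149, 182 and 143 CPM at 6 h and 107, 113 and 102 CPM at 24 h. In both genotypes the libraries of each time lay below all those of the time before. The call of the WT step from 3 to 6 h was lost without WT mouse 3 or 4 (adjusted p = 0.21 and 0.27). It was also lost with only the libraries compared in the fit (adjusted p = 0.066) and with no filter on low counts (adjusted p = 0.19). The log2 fold change against 0 h was -0.995 ± 0.09, -1.26 ± 0.09 and -1.99 ± 0.09 at 3, 6 and 24 h in WT and -0.83 ± 0.09, -1.34 ± 0.09 and -1.90 ± 0.09 in Aim2-/- (largest adjusted p of the 6 comparisons, 4.6e-07). Its level at 24 h was 25.2% of the unstimulated level in WT and 26.8% in Aim2-/-.

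Of the 4 other FOXO and FOXP genes tested, Foxo3, Foxo4 and Foxp3 fell and Foxp4 rose at 24 h in both genotypes. Foxo4 fell by 2.32 ± 0.12 and Foxo3 by 0.77 ± 0.08 on the log2 scale in WT. Foxp3, the factor of regulatory T cells, was in WT higher at 3 h (1.35 ± 0.26) and lower at 24 h (-1.09 ± 0.26). Of 10 genes for the kinases, adaptors and exportin that act on FOXO proteins, 4 rose and 5 fell at 24 h in WT, and 4 rose and 4 fell in Aim2-/-. Akt1 rose by 1.27 ± 0.09 and Xpo1, the export receptor, by 0.95 ± 0.11 in WT.

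Foxp1 (ENSMUSG00000030067, GRCm38 chr6:98925338-99522721, minus strand) moved least of the 9 genes at 24 h. The WT mice had 362, 396 and 412 CPM at 0 h, 257, 301 and 313 CPM at 3 h, 371, 389 and 361 CPM at 6 h and 279, 273 and 255 CPM at 24 h. The level thus went down, back to the resting range and down again. The log2 fold change against 0 h was -0.43 ± 0.13 at 3 h (adjusted p = 0.015), -0.06 ± 0.13 at 6 h (adjusted p = 0.72) and -0.54 ± 0.13 at 24 h (adjusted p = 0.0010), and the rise from 3 to 6 h was 0.36 ± 0.13 (adjusted p = 0.045). That rise was called in 9 of the 30 fits that each left out a library or a mouse (adjusted p from 0.0054 to 0.28), and the 3 h change was not called without WT mouse 1, 3 or 4 (adjusted p = 0.10, 0.11 and 0.074). In Aim2-/- Foxp1 was at 246, 315 and 303 CPM at 0 h, 194, 269 and 226 CPM at 3 h, 206, 299.6 and 286 CPM at 6 h and 206, 227 and 199 CPM at 24 h. Only the 24 h change passed the test there (-0.45 ± 0.13, adjusted p = 0.0044, and 0.070 without Aim2-/- mouse 4), though with a term for each mouse the 3 h change did too (-0.33, adjusted p = 0.0043).

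Btg1 (ENSMUSG00000036478, GRCm38 chr10:96617006-96622809, plus strand) and Btg2 (ENSMUSG00000020423, GRCm38 chr1:134075170-134079120, minus strand) changed mainly between 6 and 24 h. That interval was the longest sampled, and Btg2 was already lower by 6 h. The promoter windows of Btg1 and Btg2 are shown because each held 1 match to a motif that was in few windows of all genes. In Btg1 (RefSeq, GRCm38.p6, chr10:96616751-96617050, plus strand) the capitals mark TGTTTAC, the reverse complement of the forkhead sequence GTAAACA.
Btg1: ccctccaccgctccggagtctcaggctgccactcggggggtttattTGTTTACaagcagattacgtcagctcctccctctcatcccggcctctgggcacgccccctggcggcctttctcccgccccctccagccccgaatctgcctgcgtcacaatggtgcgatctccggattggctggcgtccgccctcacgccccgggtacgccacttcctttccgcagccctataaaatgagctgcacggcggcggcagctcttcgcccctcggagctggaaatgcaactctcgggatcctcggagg
In Btg2 (RefSeq, GRCm38.p6, chr1:134079106-134079405, minus strand) they mark TGACGTCA, the palindromic cAMP response element.
Btg2: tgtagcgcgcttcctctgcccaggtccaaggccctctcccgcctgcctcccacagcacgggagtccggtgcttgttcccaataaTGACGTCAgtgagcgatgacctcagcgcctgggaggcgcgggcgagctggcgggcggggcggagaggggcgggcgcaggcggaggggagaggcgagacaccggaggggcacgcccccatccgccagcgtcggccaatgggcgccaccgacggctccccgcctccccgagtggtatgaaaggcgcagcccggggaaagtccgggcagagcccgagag
The forkhead sequence, sought on both strands, was in 3.65% and the cAMP response element in 1.79% of the 32851 windows. Neither was found in the windows of the other members, and the TCF/LEF sequence CTTTGAT (3.73% of windows) and the ETS sequence CCGGAAG (8.86%) were found in none of the 8 windows listed for these genes. A match of letters is a description of the sequence and no evidence of binding.

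Btg1 stood at 829, 816 and 799 CPM in unstimulated WT mice, at 741, 748 and 704 CPM at 3 h and at 545, 707 and 731 CPM at 6 h, and only at 24 h was it at 203, 174 and 193 CPM. In Aim2-/- it was at 769, 810.1 and 875 CPM at 0 h, 712, 823 and 899 CPM at 3 h, 675, 737 and 771 CPM at 6 h and 284, 199.9 and 233 CPM at 24 h. The first 3 times lay close together and 24 h lay far below them in both genotypes. Between 6 and 24 h the log2 fold change was -1.80 ± 0.12 in WT and -1.61 ± 0.12 in Aim2-/- (adjusted p = 2.6e-10 and 2.1e-09), against -0.16 ± 0.12 and -0.01 ± 0.12 between 0 and 3 h (adjusted p = 0.35 and 0.96). The change at 6 h in WT, -0.30 ± 0.12 (adjusted p = 0.041), was -0.17 without the mouse labelled WT 1 (adjusted p = 0.37).

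Btg2 was at 599.7, 843 and 885 CPM at 0 h in WT, 559, 616 and 628 CPM at 3 h, 374, 431 and 492 CPM at 6 h and 87.2, 76.2 and 97.6 CPM at 24 h. In Aim2-/- it was at 766, 844 and 873 CPM at 0 h, 599.6, 531 and 556 CPM at 3 h, 505, 515 and 405 CPM at 6 h and 123, 100.5 and 96.0 CPM at 24 h. The larger part of the log2 change thus came after 6 h, over the longest interval sampled. The log2 fold change against 0 h was -0.84 ± 0.14 at 6 h and -3.16 ± 0.15 at 24 h in WT and -0.80 ± 0.14 and -2.96 ± 0.15 in Aim2-/- (adjusted p = 3.4e-05, 2.3e-13, 6.7e-05 and 7.9e-13), reductions at 24 h of 8.92-fold and 7.77-fold. At 3 h it was -0.37 ± 0.14 in WT (adjusted p = 0.049) and -0.56 ± 0.14 in Aim2-/- (adjusted p = 0.0044), called in 12 and 28 of the 30 fits that each left out a library or a mouse.

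Tob1 (ENSMUSG00000037573, GRCm38 chr11:94211454-94215495, plus strand) was at 73.3, 92.3 and 94.98 CPM at 0 h in WT, 37.8, 37.1 and 42.7 CPM at 3 h, 19.8, 22.5 and 25.4 CPM at 6 h and 9.42, 9.86 and 9.70 CPM at 24 h. In Aim2-/- it was at 63.8, 76.0 and 69.2 CPM at 0 h, 31.4, 39.7 and 21.0 CPM at 3 h, 25.4, 24.0 and 20.1 CPM at 6 h and 8.99, 9.36 and 10.5 CPM at 24 h. Its decline was stepwise, and by 24 h all 6 libraries were within 8.99 to 10.5 CPM. The log2 fold change was -1.15 ± 0.16 at 3 h, -1.94 ± 0.17 at 6 h and -3.17 ± 0.18 at 24 h in WT and -1.18 ± 0.16, -1.59 ± 0.16 and -2.86 ± 0.17 in Aim2-/- (largest adjusted p, 1.3e-05).

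Of the 2 relatives tested, Tob2 fell by 1.56 ± 0.12 on the log2 scale in WT and 2.16 ± 0.12 in Aim2-/- at 24 h, and Btg3 was at a mean of 0.898 CPM, with a log2 fold change of -0.17 ± 0.50 in WT. The 12 genes for CCR4-NOT subunits and the poly(A)-binding protein gene Pabpc1 were divided, with 6 higher and 5 lower at 24 h in each genotype. Cnot6 and Cnot6l, which encode deadenylases, fell by 0.98 ± 0.08 and 1.49 ± 0.10 in WT, and Cnot9, a subunit that binds regulators of decay, rose by 1.73 ± 0.10.

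**Figure D2:**
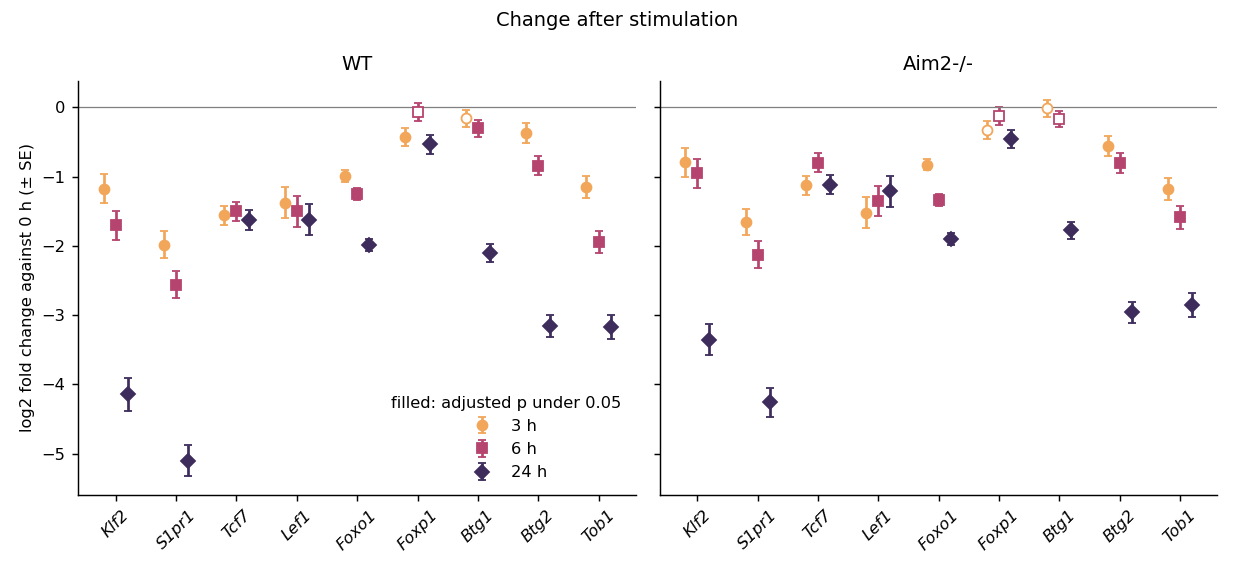
Log2 fold change of each gene at 3, 6 and 24 h against 0 h (edgeR, bars are SE, 3 mice per group) in WT (left) and Aim2-/- (right). Filled symbols passed an adjusted p of 0.05. In WT the 3 symbols of Tcf7 and of Lef1 lie close together, while S1pr1 goes from -1.98 at 3 h to -5.10 at 24 h in WT and Btg1 from -0.16 to -2.10.

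The order in time was also seen mouse by mouse, as the share of a mouse's own 24 h log2 change that it had reached earlier. At 3 h Tcf7 had reached 95.6% ± 10.03 (SD, n = 3) in WT and 99.9% ± 24.0 in Aim2-/-, and Lef1 86.4% ± 10.7 and 129.6% ± 17.4. Foxo1 had reached 50.3% ± 6.49 and 43.4% ± 4.398, S1pr1 38.8% ± 0.467 and 38.7% ± 5.23, and Tob1 36.1% ± 4.30 and 43.5% ± 17.3. Klf2 was at 28.0% ± 4.28 and 23.5% ± 4.01, Btg2 at 10.7% ± 6.31 and 18.5% ± 4.52, and Btg1 at 7.52% ± 1.68 and 1.53% ± 5.43. The lowest WT mouse for Tcf7 or Lef1 (75.5%) was above the highest WT mouse for any of the other 6 genes (57.5%). At 6 h Btg1 and Btg2 had reached 15.2% ± 12.8 and 26.3% ± 1.75 in WT and 9.81% ± 3.20 and 26.9% ± 6.84 in Aim2-/-, and Klf2 was at 41.4% ± 4.81 and 27.8% ± 3.06. For Foxp1, whose 24 h change was small, the share had an SD of 38.8 percentage points at 3 h in WT and is not read further.

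**Figure D3:**
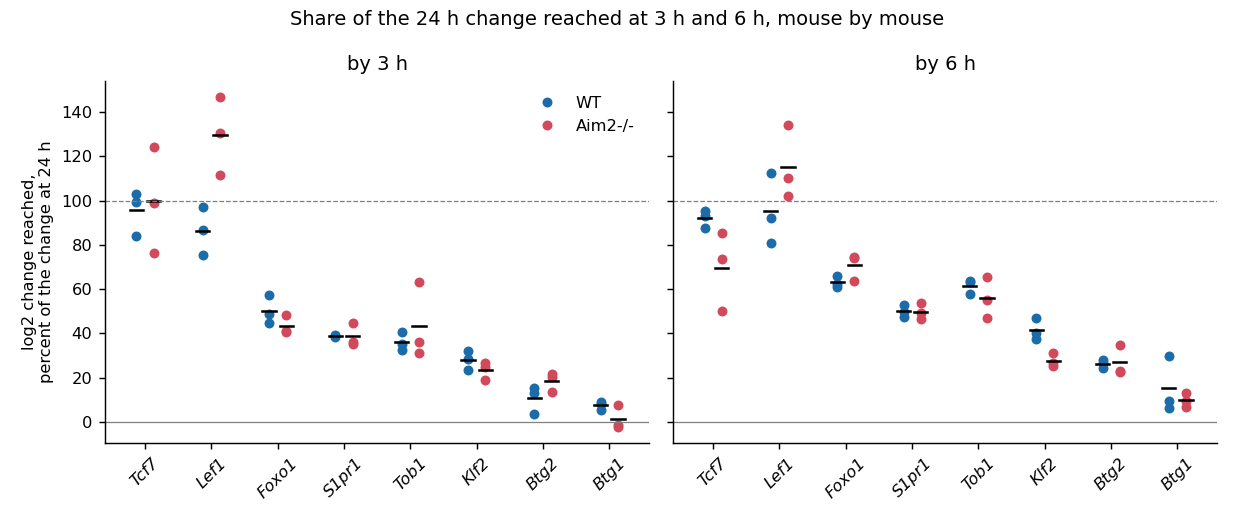
Share of the 24 h log2 change that each mouse had reached by 3 h (left) and 6 h (right), in percent, for 8 genes. Points are mice, blue WT and red Aim2-/-, and black bars are means of 3 mice. Foxp1 is not drawn because its 24 h change was too small to divide by. Tcf7 and Lef1 lie between 75.5% and 147% at 3 h, and Btg1 and Btg2 at 34.8% or less at 6 h.

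The later steps gave the same picture. Between 6 and 24 h, 7 of 9 genes were called in WT and 7 of 9 in Aim2-/-, all lower, and in both the 2 left out were Tcf7 and Lef1. Of the 15325 genes tested, 4290 were called lower in WT and 4131 in Aim2-/-. Counting both directions, 57.6% of all genes were called in WT and 54.3% in Aim2-/-. The shares of all genes for 3 to 6 h below also count both directions. Between 3 and 6 h, 5 of 9 were called in WT (25.7% of all genes), S1pr1, Foxo1, Btg2 and Tob1 lower and Foxp1 higher, and 1 of 9 in Aim2-/- (23.3%), Foxo1 (-0.51 ± 0.08, adjusted p = 0.00035). The WT count was 3 without the mouse labelled WT 1 and 3 without WT mouse 4. It was 1, Tob1, without WT mouse 3, without the 6 h library alone of WT mouse 1 or 3, and without the 3 h library alone of WT mouse 4. With a term for each mouse the Aim2-/- count was 4, with S1pr1 (-0.47, adjusted p = 0.010), Tob1 (-0.39, adjusted p = 0.028) and the higher Tcf7 added, and in WT Klf2 was added (-0.56, adjusted p = 0.0063). Tcf7 in Aim2-/- was then also lower at 24 h than at 6 h (-0.32, adjusted p = 0.015, against 0.055 without the term).

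Levels of different genes were compared only per kilobase of exon. In unstimulated WT cells the order was Tcf7 (736 ± 70.0 CPM per kilobase, SD, n = 3), S1pr1 (479 ± 52.1), Klf2 (425 ± 52.1), Btg2 (283 ± 56.1), Btg1 (154 ± 2.87), Lef1 (79.6 ± 17.2), Foxo1 (49.5 ± 2.28), Tob1 (38.0 ± 5.16) and Foxp1 (28.4 ± 1.83), and of these neighbours the libraries of S1pr1 and Klf2 overlapped. At 24 h in WT Tcf7 was still first at 238 ± 9.31, followed by Btg1 (36.0 ± 2.76) and Btg2 (31.7 ± 3.89), which overlapped, then Lef1 (25.8 ± 1.39), Klf2 (24.1 ± 8.77) and Foxp1 (19.6 ± 0.896), of which Klf2 overlapped both others, then S1pr1 (14.0 ± 3.40) and Foxo1 (12.5 ± 0.326), which overlapped, and Tob1 (4.22 ± 0.0979). S1pr1 thus went from the second place to the seventh. In Aim2-/- Tcf7 led and S1pr1 and Klf2 followed at 0 h (507 ± 93.6, 361 ± 62.1 and 324 ± 60.8), each overlapping the next, and at 24 h the order was Tcf7 (234 ± 25.6), Btg1 (45.3 ± 7.99), Btg2 (38.8 ± 5.27), Klf2 (31.8 ± 6.31), Lef1 (21.97 ± 2.77), S1pr1 (18.8 ± 4.03), Foxp1 (15.3 ± 1.09), Foxo1 (12.4 ± 0.635) and Tob1 (4.20 ± 0.333).

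Patterns were also set against each other as the Pearson correlation of log2 CPM over the 24 libraries, which share the 4 times and the 6 mice and so are given as a description. Among the 36 pairs of the 9 genes the highest were S1pr1 with Tob1 (r = 0.980), Klf2 with Btg2 (0.978) and Btg1 with Btg2 (0.973), and the lowest was Lef1 with Btg1 (0.306). Tcf7 and Lef1 had 0.890. Of 8667 other genes with a mean of at least 10 CPM, those most like Klf2 were Txnip and Tsc22d3 (both 0.990), and those most like S1pr1 were Tcp11l2 (0.996) and Ctdsp2 (0.995). Tcf7 was most like Sash3 (0.980) and Fam78a (0.975), and Lef1 most like Yy1 and Zbtb44 (both 0.953). Foxo1 came with Nr1d2 (0.992) and Lemd3 (0.991), and Foxp1 with Cnot2 (0.905) and Zhx1 (0.901), the lowest best match of the 9. Btg1 came with Itm2b (0.986) and Rab11b (0.984), Btg2 with P2ry10 (0.990) and Leng9 (0.989), and Tob1 with Ski (0.992) and Heca (0.989).

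Other genes of the naive and quiescent state moved in both directions. Of 8 homing receptors and survival genes, 6 fell and 1 rose at 24 h in each genotype. Il7r, the receptor for the survival cytokine of naive cells, had a log2 fold change of -4.86 ± 0.23 in WT and -3.76 ± 0.22 in Aim2-/-. The homing receptor gene Ccr7 (-2.71 ± 0.23 and -2.39 ± 0.22) and the costimulator gene Cd27 (-1.77 ± 0.17 and -1.79 ± 0.17) fell too. Dapl1 rose, by 2.54 ± 0.37 and 3.10 ± 0.38. The timing differed among them as among the 9 genes, since Ccr7 was already at -2.08 ± 0.22 at 3 h in WT while Cd27 stood at 0.01 ± 0.17.

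Of 15 other regulators of T cell quiescence, 10 fell and 3 rose at 24 h in WT, and 10 fell and 4 rose in Aim2-/-. Ets1 (-2.17 ± 0.16), Dgka (-2.41 ± 0.11), Vsir (-2.12 ± 0.18) and Satb1 (-1.26 ± 0.27) fell in WT, and Slfn2 rose by 0.53 ± 0.11, as did Tsc2 (0.50 ± 0.13) and Cnot3 (0.36 ± 0.10). Bach2, which restrains effector genes, rose in Aim2-/- (0.60 ± 0.21, adjusted p = 0.017) and was at 0.47 ± 0.21 in WT (adjusted p = 0.054). Of 8 activation genes, 6 rose at 3 h and none fell in either genotype, and at 24 h 5 rose and 2 fell in WT and 5 rose and 3 fell in Aim2-/-. Those that fell at 24 h in WT were Nr4a1 (-2.31 ± 0.18) and Cd69 (-0.56 ± 0.18). Myc was at 2.60 ± 0.20 and Il2ra at 2.40 ± 0.15 at 3 h in WT, and Mki67, which marks dividing cells, was at 0.44 ± 0.41 at 3 h and 3.80 ± 0.45 at 24 h.

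Few differences between Aim2-/- and WT cells passed the test for these genes. The median log2 difference of the 9 genes was -0.39, -0.10, 0.04 and -0.01 at 0, 3, 6 and 24 h. Over all genes tested it was -0.006, 0.002, 0.05 and 0.006. At 0 h 1 of 9 was called lower (1.99% of all genes), at 3 h 0 (0.0392%), at 6 h 1 (7.01%) and at 24 h 0 (0.00653%). At an unadjusted p under 0.05 there were 4, 3, 3 and 3 of 9, beside 3649, 2350, 5225 and 3134 of 15325 genes tested, and none was called higher at any time. The gene called at 0 h was Tcf7, whose 3 Aim2-/- libraries (1055, 1525 and 1414 CPM) all lay below the 3 WT libraries (1726, 2077 and 1996 CPM). Its log2 difference was -0.54 ± 0.14 (adjusted p = 0.030), and -0.61 without the mouse labelled WT 1 (adjusted p = 0.033). It was called in 22 of 30 fits that left out a library or a mouse, and not without Aim2-/- mouse 1 (-0.39, adjusted p = 0.19), without Aim2-/- mouse 4 (adjusted p = 0.059), without WT mouse 3 (adjusted p = 0.17) or without WT mouse 4 (adjusted p = 0.13), nor without the 0 h library alone of any of these mice (adjusted p from 0.055 to 0.20). At 3, 6 and 24 h Tcf7 differed by -0.11, 0.16 and -0.02, with libraries that overlapped.

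At 6 h the gene called was Foxp1, at 371, 389 and 361 CPM in WT and 206, 300 and 286 CPM in Aim2-/-, again without overlap. The log2 difference was -0.50 ± 0.13 (adjusted p = 0.019), and -0.51 without the mouse labelled WT 1 (adjusted p = 0.041). The call was lost without Aim2-/- mouse 1 (-0.35, adjusted p = 0.072), Aim2-/- mouse 4 (adjusted p = 0.057), WT mouse 3 (adjusted p = 0.11) or WT mouse 4 (adjusted p = 0.070), without the 6 h library of Aim2-/- mouse 1 (adjusted p = 0.13) or of WT mouse 3 (adjusted p = 0.068), and with only the 6 h libraries in the fit (adjusted p = 0.060). Foxp1 was also lower in the mean of Aim2-/- at the other times, by -0.44 ± 0.13 at 0 h (adjusted p = 0.054), -0.34 ± 0.13 at 3 h (adjusted p = 0.24) and -0.35 ± 0.13 at 24 h (adjusted p = 0.15).

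Lef1 had the largest differences, -0.64 ± 0.22 at 0 h and -0.79 ± 0.22 at 3 h, without passing the test (adjusted p = 0.081 and 0.12). Without the mouse labelled WT 1 they were -0.81 (adjusted p = 0.036) and -0.92 (adjusted p = 0.033), where 1.51% and 0.747% of all genes were called lower. With the mouse as a correlated block they were -0.66 (adjusted p = 0.027) and -0.80 (adjusted p = 0.026), and Foxp1 at 0 h also passed there (-0.44, adjusted p = 0.025). Both Lef1 differences also passed in DESeq2 (adjusted p = 0.033 and 0.025) and in edgeR with no filter (0.0020 and 0.00035). Foxp1 at 0 h passed in these 2 settings (0.017 and 0.012). It also passed in edgeR scaled by RLE (0.049) or library totals (0.046), or filtered at a mean of 1 CPM (0.045), where Lef1 did not. Neither gene passed in limma-voom without the block or with only the libraries compared in the fit. Klf2 and S1pr1 stood at -0.39 ± 0.21 and -0.41 ± 0.19 at 0 h (adjusted p = 0.26 and 0.19). For Foxo1, Btg1 and Btg2 the 95% confidence intervals at 0 h were -0.27 to 0.06, -0.23 to 0.24 and -0.18 to 0.37.

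Aim2-/- mouse 1 had the lowest unstimulated level of Klf2, S1pr1, Tcf7, Lef1, Foxp1 and Tob1 of all 6 mice. The same library had the highest sums of myeloid (538 CPM) and B cell markers (42.3 CPM), and all 3 Aim2-/- libraries were above the 3 WT libraries in the B cell, myeloid and NK cell sums given above. Of the NK cell markers only Eomes was called at 0 h (log2 difference 1.52 ± 0.28, adjusted p = 0.0070). Klrb1c stood at 0.17 ± 0.37 (adjusted p = 0.82). Aim2-/- mouse 1 had the lowest NK cell sum of the Aim2-/- mice (91.5 CPM). At 6 h this mouse had the lowest Foxp1 level, and its B cell and myeloid sums (46.4 and 296 CPM) were above those of the WT mice (7.01 to 11.9 and 29.1 to 58.8 CPM). Whether such cells had a part in the lower levels was not tested.

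**Figure D4:**
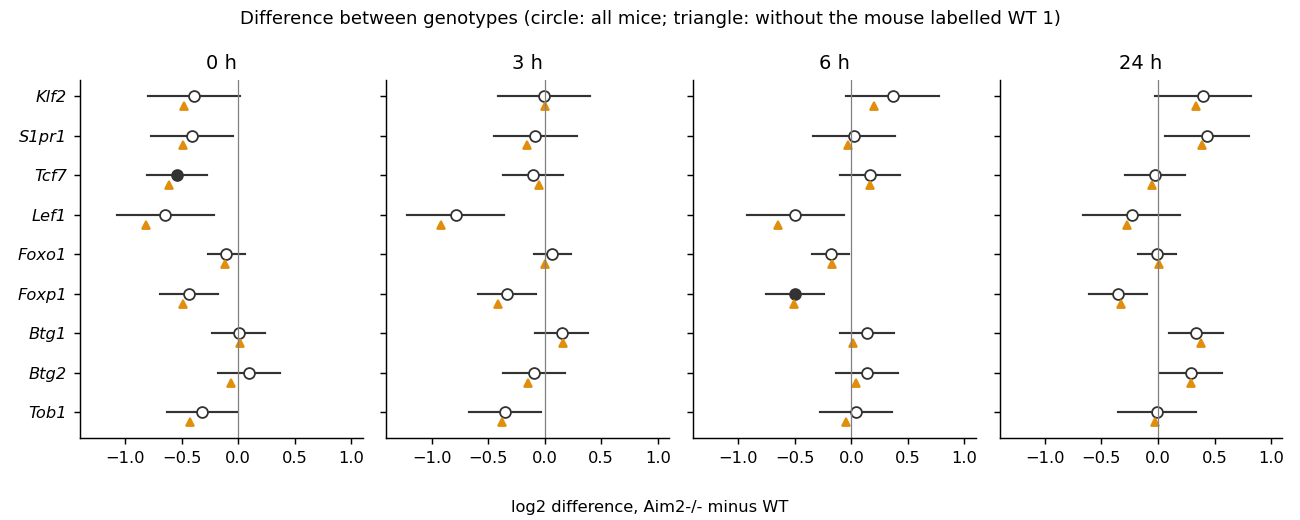
Log2 difference of each gene between Aim2-/- and WT at each time. Circles are the estimates from all 6 mice with 95% confidence intervals, filled where the adjusted p was under 0.05, and orange triangles are the estimates without the mouse labelled WT 1. Only Tcf7 at 0 h (-0.54) and Foxp1 at 6 h (-0.50) are filled, and Klf2 and S1pr1 go from -0.39 and -0.41 at 0 h to 0.40 and 0.43 at 24 h.

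The last comparison asked whether stimulation changed the 9 genes by a different amount in Aim2-/- cells. None of them passed at 3 h (0.0% of all genes called), at 6 h (0.0261%) or at 24 h (0.0%), with 1, 2 and 3 of 9 at an unadjusted p under 0.05, beside 653, 2019 and 1825 of 15325 genes tested. At 24 h all 9 differences were above 0, the direction of a smaller reduction in Aim2-/- cells, with a median of 0.33 on the log2 scale beside 0.01 over all genes. S1pr1 was at 0.84 (95% confidence interval 0.32 to 1.36), Klf2 at 0.79 (0.20 to 1.37) and Tcf7 at 0.51 (0.14 to 0.89), with adjusted p = 0.21, 0.29 and 0.29. At 6 h Klf2 was at 0.75 (0.17 to 1.33, adjusted p = 0.27) and Tcf7 at 0.70 (0.33 to 1.08, adjusted p = 0.11). These estimates share the 0 h libraries, where the median log2 difference of the 9 genes between Aim2-/- and WT was -0.39, beside -0.006 over all genes. With a term for each mouse, Klf2 (0.78, adjusted p = 0.041) and Tcf7 (0.70, adjusted p = 0.016) passed at 6 h, where 4.68% of all genes did, and Klf2 (0.83, adjusted p = 0.044) and S1pr1 (0.84, adjusted p = 0.024) passed at 24 h, where 2.77% did. When the mouse labelled WT 1 was also left out, Tcf7 at 6 h (0.77, adjusted p = 0.020) and S1pr1, Klf2 and Lef1 at 24 h (0.89, 0.88 and 0.56, adjusted p = 0.042, 0.049 and 0.042) passed and Klf2 at 6 h did not. This setting was added after seeing the data. The shares of all genes given above are for the fit with all 6 mice and not for this setting. At 3 h none of the 9 genes passed in either setting, and with all 6 mice 0.0587% of all genes did.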

How the data were processed

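Spleen CD4+ T cell mRNA (TruSeq stranded kit, 51-base single reads) was aligned by the authors with STAR to GRCm38 (Ensembl annotation), and the deposited values are raw read counts per gene and library. STAR, DESeq2 and edgeR stand in the submitters' processing notes without versions, and the strand setting of the counting is not given in the sources used here. Of 54446 identifiers 54409 were matched to symbols. Library totals were 19.7 to 21.6 in units of 1000000 counts, with a common biological coefficient of variation of 18.6%. Genes were filtered with filterByExpr (minimum count 10), scaled by TMM (factors 0.928 to 1.09) and tested with edgeR 4.0.16 (R 4.3.3, quasi-likelihood test, Benjamini-Hochberg adjustment over 15325 genes, 24 libraries in 1 fit, a mean per group). A fold change is stimulated against 0 h, later against earlier time, or Aim2-/- against WT. An interaction is the change in Aim2-/- minus that in WT. The fit was tested on simulated data.

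The labels give the same mouse number at all 4 times, and deviations from group means correlated at 0.139 to 0.567 in 36 pairs of libraries of the same mouse and at -0.432 to 0.0742 in 72 pairs of different mice, so the numbers pair the libraries. A fit with the mouse as a block (edgeR term, or limma 3.58.1 voom with duplicateCorrelation between genotypes) is given where it changes a call. DESeq2 1.42.0, other scalings and filters, and leaving out each mouse or library were the other alternatives. The block without the mouse labelled WT 1 was added after seeing the data.

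The 9 genes and all lists were chosen with earlier results of these data known. Besides the 9 genes, text names from each list some of the 4 genes with the highest mean CPM and of those that moved against the rest of the list, and for each of the 9 the 2 genes with the highest correlation. Gene positions and exon lengths are from GENCODE for GRCm38.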

Additional observations from a re-analysis of the deposited data

Results flagged for a closer look

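With a term for each mouse, 4 changes with stimulation differed between Aim2-/- and WT cells by the test of the difference itself, in edgeR with adjustment over all genes. Over all genes tested, 4.68% passed this test at 6 h and 2.77% at 24 h. Klf2 at 6 h differed by 0.78 on the log2 scale (adjusted p = 0.041) and at 24 h by 0.83 (adjusted p = 0.044). Tcf7 at 6 h differed by 0.70 (adjusted p = 0.016) and S1pr1 at 24 h by 0.84 (adjusted p = 0.024). All 4 were a smaller reduction in Aim2-/- cells, in which the mean 0 h levels of Klf2, Tcf7 and S1pr1 were lower than in WT. Aim2-/- mouse 1 had the lowest 0 h level of each of these genes. Of the 0 h differences only that of Tcf7 had passed. In edgeR without the term for each mouse and with the filter on low counts none of the 4 differing changes passed (adjusted p from 0.11 to 0.29), while DESeq2 called Tcf7 at 6 h (0.69, adjusted p = 0.029) and edgeR with no filter called S1pr1 at 24 h (0.83, adjusted p = 0.031). With the term and without the mouse labelled WT 1, Klf2 at 6 h did not pass.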

How the results depend on the processing

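Over 153 comparisons of a gene and 40 alternatives, 5931 values were recomputed. Of these, 5729 kept the side of the threshold, some of the uncalled ones with the other sign, 115 lost a call, 87 gained one, and none of the called values changed sign. The 25 of 27 calls of stimulation in WT and the 23 of 27 in Aim2-/- became 22 to 25 and 20 to 24 when a mouse or library was left out. Differences between Aim2-/- and WT were called in 2 of 36 cases. The count was 5 with DESeq2, 6 without the filter on low counts, 0 with only the libraries compared in the fit and 5 with the mouse as a block in voom. Leaving out a mouse or a library gave 0 to 11, with 0 without Aim2-/- mouse 1 or 4 or WT mouse 3 or 4, 4 without the mouse labelled WT 1 and 11 without Aim2-/- mouse 2. The cause was not tested. These counts are not set here beside the calls over all genes in the same fits. They are thus not read as particular to the 9 genes. Of 27 interactions 0 were called, against 1 with DESeq2, 1 without the filter, 4 with the mouse as a replicate block and 4 with the block when the mouse labelled WT 1 was left out. Later steps in WT gave 12 calls of 18, and 7 to 12 when a mouse or library was left out, with 7 without WT mouse 3. Those in Aim2-/- gave 8 of 18, and 7 to 11. The block changed no other call than those given beside the results. Scaling by library totals moved the median of all genes by 0.107 at 3 h in WT and by 0.116 and 0.120 at 3 and 6 h in Aim2-/-. With 3 mice per group, SEs for these genes were 0.08 to 0.31 on the log2 scale, which limits what can be told apart between genotypes.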
